A study of Mus musculus with 8 samples.

Results

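The retinoic acid synthesis, binding and clearance genes are 9 genes chosen by symbol from the deposited expression table: Stra6, Dhrs3, Aldh1a2, Aldh1a3, Crabp1, Crabp2, Cyp26a1, Cyp26b1 and Rarb. All 9 were found, once each, among the 46406 genes of the table. Of these, 5 (Stra6, Aldh1a3, Crabp1, Crabp2 and Cyp26a1) reached a mean of 1 FPKM (fragments per kilobase of gene, scaled to the size of the library) over the 8 libraries and were tested, together with 14521 genes in all. The other 4 were too low to be tested and are given by their values.

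The cells were anterior neural progenitors made from E14 mouse embryonic stem cells, and poly(A) RNA was sequenced. WT cells (4 libraries) carried no edit. Null cells (4 libraries) were homozygous for the PE Lhx5(-109) deletion, in which Cas9 and a pair of guide RNAs removed a poised enhancer of Lhx5, a LIM homeobox gene of the forebrain. They came from 2 clonal lines, clone 1 and clone 2, with 2 libraries each. All groups went through the same differentiation in N2B27 medium, first with bFgf and in the later days with the WNT inhibitor Xav939. Whether the B27 supplement contained its usual vitamin A ester is not stated in the labels. Every null library comes from a derived clone and no WT library carries a clone label, so the deletion and clonal derivation cannot be told apart. Each clone is 1 line, and the labels call its 2 libraries biological replicates, so the tests on a clone measure the spread between libraries and not between lines.

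Retinoic acid is made from vitamin A in 2 oxidation steps. Stra6 is a membrane receptor that takes up retinol, Dhrs3 returns retinal to retinol, and the retinaldehyde dehydrogenases Aldh1a2 and Aldh1a3 make the acid. Crabp1 and Crabp2 bind retinoic acid in the cytoplasm, the cytochromes Cyp26a1 and Cyp26b1 break it down, and Rarb is a nuclear receptor that binds it. In the embryo retinoic acid promotes posterior identity in the neural tube, and Cyp26 enzymes keep the anterior neural plate low in it. Cyp26a1 and Rarb are also textbook target genes, with a retinoic acid response element in their promoters.

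Such an element is shown for both genes, the only members in whose promoter windows the search found one. RefSeq promoter windows (GRCm38.p6, 250 bases before to 50 after a start site) were at hand for 7 of the 9 members, 12 windows in all, and none was searched for Aldh1a3 and Crabp2. Both strands were searched for direct repeats, with 1, 2 or 5 bases between the 2 copies. Either copy could be AGGTCA or one of its variants, of which AGTTCA was the first, GGTTCA the second and GGGTCA the last. Only the Rarb and the Cyp26a1 window held one, each with 5 bases between the copies, a form found in 0.0974% of all 32851 windows. A repeat with any of the 3 spacings was found in 0.588% of them. In Rarb the repeat lies 53 to 37 bases before a start site inside the annotated gene, and in Cyp26a1 it lies 32 to 16 bases before the start, on the opposite strand. Each sequence is printed 5′ to 3′ along the gene's strand, with the repeat in capitals. The Rarb stretch is chr14:16575493-16575569 on the minus strand and the Cyp26a1 stretch is chr19:37697736-37697807 on the plus strand.
Rarb: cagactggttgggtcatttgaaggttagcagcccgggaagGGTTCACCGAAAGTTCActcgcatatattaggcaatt
Cyp26a1: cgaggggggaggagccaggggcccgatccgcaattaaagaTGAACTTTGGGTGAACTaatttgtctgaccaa
A match in letters is a description of the window and does not show that a receptor was bound there in these cells.

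Lhx5 itself stood at 15.0 to 17.5 FPKM in the WT libraries and at 0.854 to 1.90 FPKM in the null libraries. All 11 anterior neural progenitor markers examined, among them Sox1, Pax6, Six3 and Otx2, had a mean of at least 1 FPKM. Of 8 mesoderm markers 0 reached that mean, and Msgn1 was listed at 0 in every library. The depth of a library is unknown, since its reads were not analysed here. The sum of FPKM over genes ran from 518491 to 528726 in these libraries. Clone 1 replicate 2 stood apart in RNAs without a poly(A) tail, namely Rmrp, Rn7sk and Rpph1, at 112, 250.2 and 371 FPKM against at most 7.62, 28.4 and 22.8 FPKM elsewhere. The changes of members and pathway genes called in clone 1 are also given without it.

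In WT cells the binding proteins were the most abundant members by far. Crabp2 averaged 323 ± 6.95 FPKM (SD, n = 4), higher than 99.5% of all genes in the table. Crabp1 followed at 36.4 ± 1.26 FPKM, Cyp26a1 at 22.3 ± 4.97 FPKM and Stra6 at 5.85 ± 0.390 FPKM (n = 4 each), and the libraries of each of these 4 genes did not overlap with those of the next. Aldh1a3 (1.11 ± 0.157 FPKM), Dhrs3 (0.903 ± 0.187 FPKM) and Aldh1a2 (0.903 ± 0.201 FPKM) had overlapping libraries and no order among them. Rarb (0.193 ± 0.0474 FPKM) and Cyp26b1 came last. Transcripts for retinoic acid binding and for Cyp26a1 were thus far more abundant than those of the 2 dehydrogenases that make the acid.

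**Figure D1:**
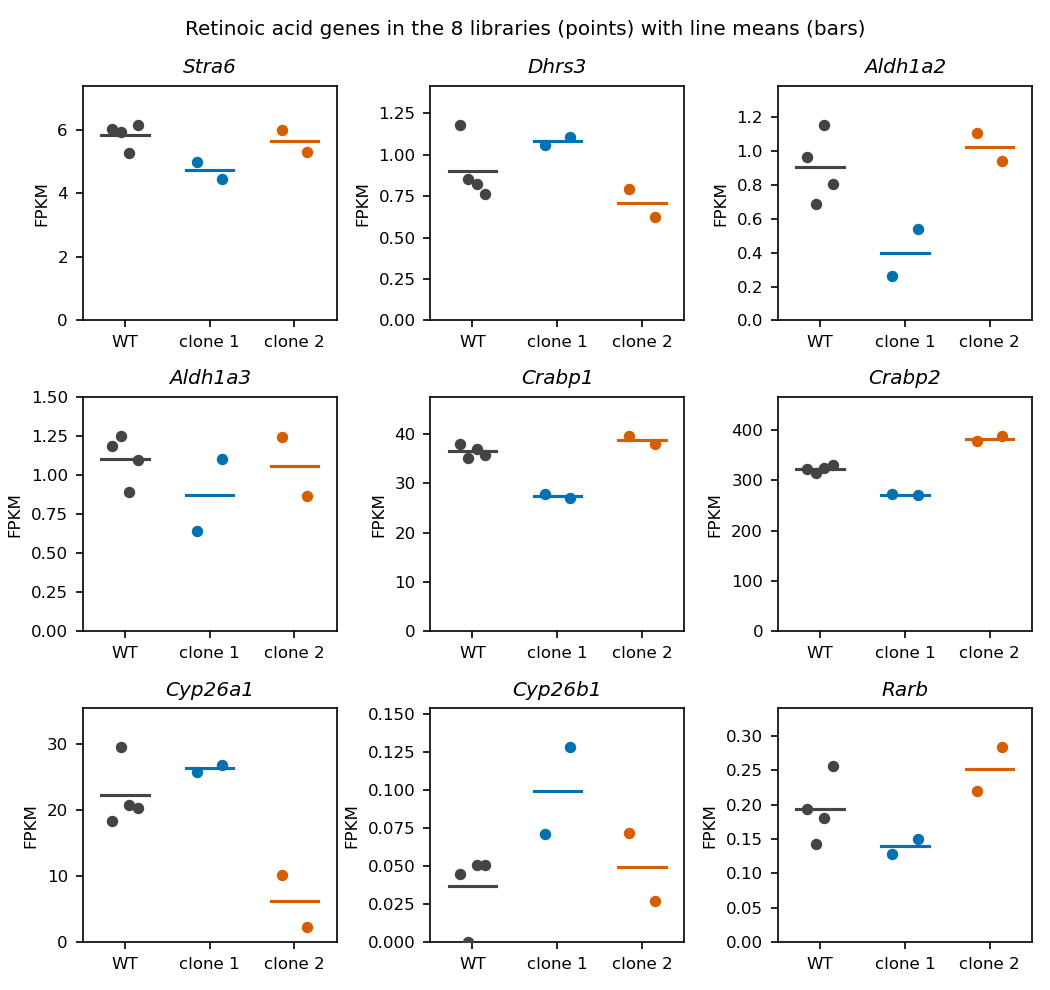
FPKM of the 9 retinoic acid genes (vertical axes, linear, each from 0) in the 4 WT, 2 clone 1 and 2 clone 2 libraries; points are libraries and bars are line means. Crabp1 and Crabp2 are lowest in clone 1, Cyp26a1 is lowest in clone 2, and Cyp26b1 stays under 0.13 FPKM in each library.

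With all null libraries set against all WT libraries, no tested retinoic acid gene passed the threshold, which does not show that they were unchanged. In limma 0 of the 5 passed an adjusted p of 0.05, where 0.0551% of all tested genes passed. None of the 5 had an unadjusted p under 0.05, where 4.74% of all tested genes did. For each of the 9 genes the null libraries overlapped with the WT libraries, while they did not overlap for 4.26% of all tested genes. That share leaves out genes as low as the untested members. The means of the 2 clones lay on opposite sides of the WT mean for Crabp1, Crabp2 and Cyp26a1. For Stra6 and Aldh1a3 both clone means lay below it. Cyp26a1 had a log2 fold change of -0.84 with a 95% interval from -2.46 to 0.79, which spans both directions. The intervals were narrower for Crabp1 (-0.45 to 0.14), Crabp2 (-0.29 to 0.29), Stra6 (-0.35 to 0.055) and Aldh1a3 (-0.39 to 0.18). In the authors' deposited table the null to WT fold of mean reads was 0.763 for Cyp26a1 (p = 0.584), 0.926 for Crabp1 (p = 0.39) and 1.04 for Crabp2 (p = 0.636), with no test stated. The smallest p of a member in the authors' deposited table was 0.252, for Cyp26b1.

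The clones taken one by one gave calls that the pooled comparison did not. Against WT, clone 1 had lower Crabp1 and Crabp2, and clone 2 had higher Crabp2. Between the clones, clone 2 had more Crabp1 and Crabp2 and less Cyp26a1. Of the 5 tested members, 2 fell in clone 1 and 0 rose, where 11.4% of all tested genes fell and 4.16% rose. In clone 2, 1 rose and 0 fell, against 7.06% and 6.96% of all tested genes. Between the clones 2 were higher and 1 was lower in clone 2, and as many as 24.9% and 15.0% of all tested genes were, so such a difference was common between these lines. Both clone comparisons share the WT libraries.

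The ranges of the libraries were read over all 9 members, with those that limma did not call or did not test. Clone 1 lay below every WT library for Aldh1a2, Crabp1, Crabp2 and Stra6 and above every WT library for Cyp26b1, and among all tested genes 29.2% and 12.1% did so. Clone 2 lay above WT for Crabp1 and Crabp2 and below WT for Cyp26a1, against 24.7% and 22.7% of all tested genes. For Crabp1, which limma did not call in clone 2, the lower clone 2 library was at 37.924 FPKM. The highest WT library was at 37.918 FPKM. Clone 2 lay above clone 1 for Aldh1a2, Crabp1, Crabp2, Rarb and Stra6 and below it for Cyp26a1 and Dhrs3, against 40.1% and 27.8% of all tested genes. These shares cover tested genes only, and Aldh1a2, Cyp26b1, Dhrs3 and Rarb were too low to be among them.

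**Figure D2:**
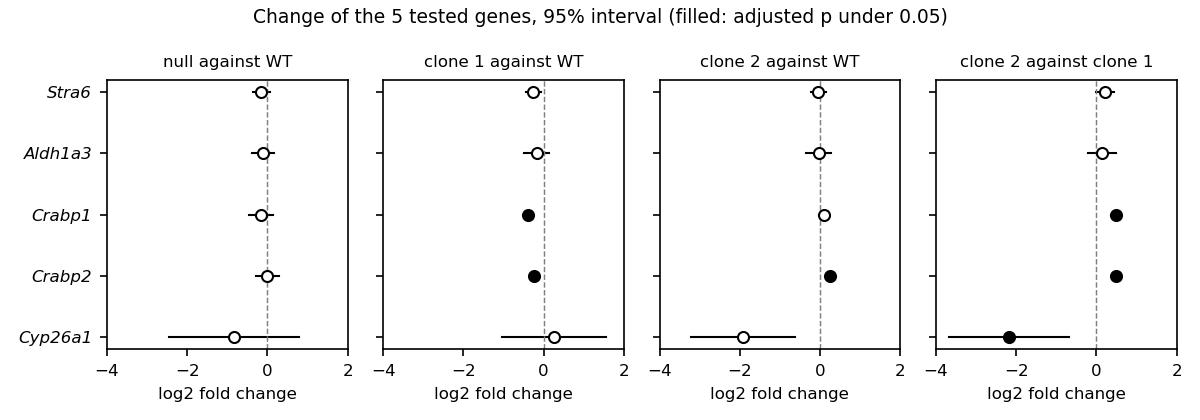
Log2 fold change on the FPKM + 1 scale (horizontal axes) of the 5 tested genes in the 4 comparisons, with the 95% interval from limma; filled points passed an adjusted p of 0.05. Crabp1 and Crabp2 lie left of 0 in clone 1, Crabp2 lies right of 0 in clone 2, and the intervals of Cyp26a1 are the widest.

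The binding proteins differed most clearly. Crabp2 (ENSMUSG00000004885, chromosome 3, 87948666 to 87953376, plus strand, GRCm38), which carries retinoic acid to its nuclear receptors, was at 322, 314, 324 and 331 FPKM in WT, at 273 and 270.3 FPKM in clone 1 and at 379 and 388 FPKM in clone 2. The 3 groups did not overlap: clone 1 lay below every WT library and clone 2 above. Crabp2 fell by 0.25 in clone 1 on the log2 scale (SE 0.030, 95% interval -0.32 to -0.18, limma adjusted p = 0.00346), to 84.0% of the WT mean. In clone 2 it rose by 0.25 (SE 0.030, 95% interval 0.18 to 0.31, limma adjusted p = 0.00409), to 119% of the WT mean. Clone 2 exceeded clone 1 by 0.50 (limma adjusted p = 0.000106). In bulk RNA, fewer cells of a type and less RNA per cell cannot be told apart.

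Crabp1 (ENSMUSG00000032291, chromosome 9, 54764748 to 54773110, plus strand), the other cytoplasmic binding protein, was at 37.9, 35.0, 36.8 and 35.8 FPKM in WT, at 27.7 and 26.9 FPKM in clone 1 and at 39.5 and 37.9 FPKM in clone 2. Clone 1 lay below every other library, and the lower clone 2 library was nearly equal to the highest WT library. Crabp1 fell by 0.40 in clone 1 (SE 0.048, 95% interval -0.51 to -0.29, limma adjusted p = 0.00344), to 75.0% of the WT mean. In clone 2 its log2 fold change was 0.087 (95% interval -0.021 to 0.20, limma adjusted p = 0.25). Between the clones the difference was 0.49 (limma adjusted p = 0.000512). Without clone 1 replicate 2, a fit that leaves clone 1 with 1 library, the changes in clone 1 were -0.38 for Crabp1 and -0.24 for Crabp2. After scaling by the median ratio, under which 45.4% of the calls in clone 1 were higher in place of 26.7%, Crabp1 and Crabp2 were still lower, by -0.36 and -0.20. Fabp5, a fatty acid binding protein that can also carry retinoic acid, was at 108 ± 3.44 FPKM in WT (n = 4), at 88.7 and 87.9 FPKM in clone 1 and at 115 FPKM in both clone 2 libraries. It fell in clone 1 (log2 fold change -0.28, limma adjusted p = 0.00418), and its change in clone 2 was 0.091 (adjusted p = 0.138).

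Sums of several other marker lists also differed between the clones, in both directions. The midbrain and hindbrain sum was lowest in clone 1 and highest in clone 2. The pluripotent, surface ectoderm and neuron sums ran the other way. Summed over 10 pluripotent and epiblast markers, of which 6 reached a mean of 1 FPKM, clone 1 stood at 174 to 194 FPKM, WT at 100.3 to 127 FPKM and clone 2 at 74.6 to 84.9 FPKM. The sum over 10 surface ectoderm and epithelial markers was 73.5 to 85.1 FPKM in clone 1, 39.3 to 55.8 FPKM in WT and 31.3 to 44.9 FPKM in clone 2. The sum over 12 midbrain and hindbrain markers, of which 9 reached a mean of 1 FPKM and Hoxa2 and Hoxb2 stayed under 0.1 FPKM, was 102 to 113 FPKM in clone 1, 155 to 191 FPKM in WT and 296 to 329 FPKM in clone 2. The sum over the neuron markers was 50.1 to 56.0 FPKM in clone 1, 38.1 to 50.2 FPKM in WT and 22.4 to 28.8 FPKM in clone 2, where Elavl3 and Stmn2 fell. The sum over 8 endoderm markers was 31.9 to 33.4 FPKM in clone 1, 43.9 to 47.4 FPKM in WT and 43.3 to 47.4 FPKM in clone 2. Of the 2 endoderm markers tested, Cxcr4 fell and Hhex rose in clone 1. The neural crest sums and the retina and optic vesicle sums of the clones overlapped. Of the 3 neural crest markers tested, Ets1 and Twist1 rose and Pdgfra fell in clone 1. In clone 2 Ets1 and Twist1 were lower and Pdgfra higher than in clone 1. Of the 2 retina and optic vesicle markers tested, Vax2 was higher in clone 2 than in clone 1. The part of these markers in the Crabp1 and Crabp2 values was not tested.

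Of the 5 tested members, Cyp26a1 had the widest intervals. This retinoic acid hydroxylase gene (ENSMUSG00000024987, chromosome 19, 37697798 to 37701536, plus strand), whose promoter repeat is printed above, was at 18.4, 29.6, 20.8 and 20.4 FPKM in WT. It was at 25.9 and 26.9 FPKM in clone 1 and at 10.1 and 2.26 FPKM in clone 2. Both clone 2 libraries lay below all others, and they differed 4.48-fold from each other, a gap exceeded by 1.48% of tested genes. Clone 1 lay within the WT range. The clone 2 mean of 6.21 FPKM was 3.59-fold lower than the WT mean.

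In limma, Cyp26a1 differed between the clones (log2 fold change -2.18, SE 0.59, 95% interval -3.67 to -0.69, adjusted p = 0.0357) and did not pass for clone 2 against WT (-1.93, SE 0.51, adjusted p = 0.0671) or clone 1 against WT (0.25, adjusted p = 0.77). The call between the clones lay near the threshold. Without WT replicate 1, 2, 3 or 4 the difference stayed at -2.18 and the adjusted p was 0.0629, 0.0533, 0.0667 and 0.067. Without clone 1 replicate 1 or 2 it was -2.21 and -2.16 (adjusted p = 0.0913 and 0.109). Without clone 2 replicate 1 the difference was -3.07, and without clone 2 replicate 2 it was -1.30. Those fits leave clone 2 with 1 library and take the gap between its libraries out of the spread. They therefore cannot show whether the call holds. The change in clone 2 against WT was -2.81 without clone 2 replicate 1 and -1.04 without clone 2 replicate 2, with the same limit.

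**Figure D3:**
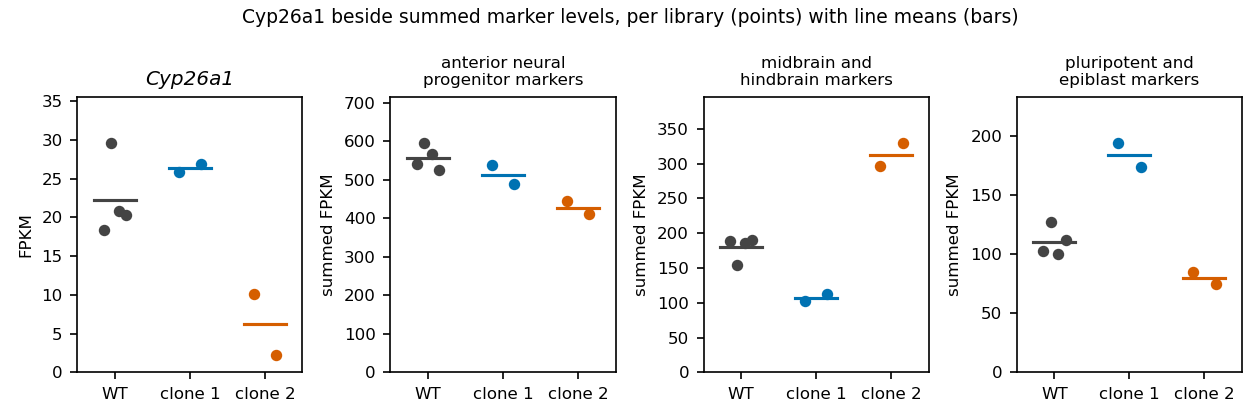
Cyp26a1 in FPKM (left) and the summed FPKM of 11 anterior neural progenitor, 12 midbrain and hindbrain and 10 pluripotent and epiblast markers (vertical axes, linear, each from 0) in the 8 libraries; points are libraries and bars are line means. Clone 2 is lowest for Cyp26a1 and for the anterior and pluripotent sums, and highest for the midbrain and hindbrain sum.

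The anterior neural progenitor markers summed to 527 to 595 FPKM in WT, 488 to 539 FPKM in clone 1 and 410 to 445 FPKM in clone 2. Most of this sum is Otx2 and Sox2, at 206 and 135 FPKM on average in WT. Of the 11 markers 6 fell in clone 2, and Sox1 and Nes rose (limma adjusted p = 0.0365 and 0.0475). The midbrain and hindbrain sum was 296 FPKM in clone 2 replicate 1 and 329 FPKM in clone 2 replicate 2, which had the least Cyp26a1. WT replicate 2, with the most Cyp26a1, had the lowest midbrain and hindbrain sum of the WT libraries, 155 FPKM. It also had the highest anterior (595 FPKM), pluripotent (127 FPKM), surface ectoderm (55.8 FPKM) and neuron (50.2 FPKM) sums of the WT libraries. The neuron sum given above was lowest in clone 2 as well. The part of these markers in the Cyp26a1 values was not tested.

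Cyp26b1 (chromosome 6, 84571414 to 84593908, minus strand) was close to undetected. It was at 0.0450, 0.0510 and 0.0508 FPKM in WT replicates 1, 3 and 4 and was listed at 0 in WT replicate 2. It was at 0.0709 and 0.128 FPKM in clone 1 and at 0.0719 and 0.0271 FPKM in clone 2. In the authors' deposited table its mean reads were 5.29 in WT and 9.45 in null, too few to show a difference.

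The third enzyme of the family, Cyp26c1, is not a member and was singled out after its values were seen. It lies 4.40 kb before Cyp26a1 on the same strand of chromosome 19 (37685581 to 37693398), with 0 annotated genes between them. It was at 0.765, 1.14, 0.660 and 0.779 FPKM in WT, at 1.72 and 1.11 FPKM in clone 1 and at 0.305 and 0.0198 FPKM in clone 2. Like Cyp26a1 it was lowest in the 2 clone 2 libraries and lowest of all in replicate 2. With a mean of 0.813 FPKM it was not tested. Over the 8 libraries, which share 3 lines, Pearson's r of the log2 values of Cyp26a1 and Cyp26c1 was 0.90.

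The enzymes that make retinoic acid were low in each group. Aldh1a2 (chromosome 9, 71215789 to 71296243, plus strand), the main retinaldehyde dehydrogenase of the early embryo, was at 0.964, 0.689, 1.15 and 0.805 FPKM in WT. It was at 0.264 and 0.537 FPKM in clone 1 and at 1.10 and 0.940 FPKM in clone 2. Clone 1 lay below every other library, at 44.4% of the WT mean, and clone 2 lay within the WT range. With a mean of 0.807 FPKM it was not tested in the main analysis. In the fit with no filter on low values, the difference between the clones was 0.54 (limma adjusted p = 0.0353) and that of clone 1 against WT was -0.44 (adjusted p = 0.0845). With a pseudocount of 0.1 the difference of clone 1 against WT was -1.04, since the size of a change near 1 FPKM depends on the pseudocount. The authors' deposited table gives mean reads of 61.2 in WT and 49.6 in null.

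Aldh1a3 (chromosome 7, 66390890 to 66427517, minus strand), the dehydrogenase of the eye and nasal region, was at 1.19, 1.25, 0.890 and 1.10 FPKM in WT, 0.644 and 1.10 FPKM in clone 1 and 1.25 and 0.866 FPKM in clone 2. The groups overlapped. Its log2 fold change was -0.18 in clone 1 (95% interval -0.49 to 0.13, limma adjusted p = 0.393) and -0.038 in clone 2 (95% interval -0.35 to 0.27, limma adjusted p = 0.885). Aldh1a1, the third enzyme of the family, was named after its values were seen and reached at most 0.0609 FPKM in any library.

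Of the genes acting before the dehydrogenases, Stra6 (ENSMUSG00000032327, chromosome 9, 58063788 to 58153996, plus strand) was at 6.02, 5.95, 5.28 and 6.15 FPKM in WT. It was at 5.00 and 4.47 FPKM in clone 1 and at 6.01 and 5.30 FPKM in clone 2. Clone 1 lay below every WT library, by 0.26 on the log2 scale on average (95% interval -0.45 to -0.063), but did not pass after adjustment (limma adjusted p = 0.0737). Clone 2 overlapped with WT (log2 fold change -0.042, 95% interval -0.24 to 0.15, limma adjusted p = 0.781). Ccdc33 overlaps Stra6 on the opposite strand over 55036 bases and was at 0.840 to 4.45 FPKM. No source used here says whether the counting used strand, so reads of the 2 genes may have been mixed.

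Dhrs3 (chromosome 4, 144892827 to 144928209, plus strand), the retinal reductase, was at 1.18, 0.852, 0.822 and 0.761 FPKM in WT, 1.06 and 1.10 FPKM in clone 1 and 0.793 and 0.624 FPKM in clone 2. WT overlapped with both clones, while both clone 1 libraries lay above both clone 2 libraries. In the fit with no filter the difference between the clones was -0.29 (limma adjusted p = 0.132).

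Rarb (chromosome 14, 16430839 to 16819156, minus strand) was at 0.193, 0.142, 0.181 and 0.257 FPKM in WT, 0.129 and 0.150 FPKM in clone 1 and 0.220 and 0.283 FPKM in clone 2. Both clones overlapped with WT, and clone 2 lay above clone 1. In the fit with no filter the difference between the clones was 0.14 (limma adjusted p = 0.173). The authors' deposited table gives mean reads of 20.5 in WT and 18.4 in null. Rarb shares 4624 bases at its end with Top2b on the opposite strand, a gene at 46.8 to 59.8 FPKM, and reads there may likewise have been mixed. Cyp26a1 and Rarb, the members with the promoter repeats, did not have parallel levels: Cyp26a1 was lowest and Rarb highest on average in clone 2, and Pearson's r of their log2 values over the 8 libraries was -0.79.

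Among all pairs of members, the highest Pearson's r over the 8 libraries were those of Crabp1 with Crabp2 (0.89), Crabp1 with Aldh1a2 (0.89) and Crabp2 with Rarb (0.83). The lowest was that of Crabp2 with Cyp26a1 (-0.80). These values describe 8 libraries that fall into 3 lines. Of the 14520 other tested genes, those most like Crabp1 over the 8 libraries were Dzip3 (r = 0.997), Ttc8 (r = 0.995) and Mcm5 (r = 0.989). Dzip3 was at 28.2 FPKM on average in WT, 21.2 in clone 1 and 30.0 in clone 2. Those most like Crabp2 were Uchl3 (r = 0.996), Pgrmc1 (r = 0.995) and Mapk8ip1 (r = 0.994). Pgrmc1 averaged 67.5 FPKM in WT, 55.9 in clone 1 and 83.9 in clone 2.

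The rest of the pathway was read from 6 lists with 57 genes, of which 35 were tested. In null against WT 0 of the 35 passed limma's test, with 2 at an unadjusted p under 0.05, beside 4.74% of all tested genes. In clone 1, 7 fell and 0 rose, beside 11.4% and 4.16% of all tested genes. The median log2 fold change there was -0.085 against -0.048 over all tested genes. In clone 2, 5 rose and 4 fell, beside 7.06% and 6.96% of all tested genes, with a median of 0.091 against 0 over all tested genes. Between the clones 15 were higher and 6 were lower in clone 2, with a median of 0.13 against 0.045. Of all tested genes, 39.9% differed between the clones. Single libraries moved these counts, and the shares over all tested genes moved with them. In clone 1, 4 fell and 0 rose without WT replicate 4, beside 4.99% and 1.85% of all tested genes. In clone 2, 3 rose and 2 fell without WT replicate 3, beside 3.75% and 3.84% of all tested genes. Between the clones 13 were higher and 5 lower without WT replicate 4, beside 21.7% and 13.1%. A fit that leaves a clone with 1 library takes the gap between its libraries out of the spread. It cannot show whether a call holds, so only changes are given here. Without clone 1 replicate 2 the changes in clone 1 were -0.28 for Fabp5, -0.84 for Nr2f2, -0.27 for Rdh13 and -0.49 for Meis2. Those of Rara, Nrip1 and Meis1 were -0.19, -0.44 and -0.83. Without clone 2 replicate 2 the changes in clone 2 were 0.48 for Nr2f2 and -1.07 for Pax6.

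All 5 other retinoic acid and retinoid X receptors were tested, and they were more abundant than Rarb. Rarg was at 15.4, 19.4, 14.4 and 15.2 FPKM in WT, 23.0 and 21.9 FPKM in clone 1 and 9.60 and 6.82 FPKM in clone 2. It fell in clone 2 (log2 fold change -0.90, limma adjusted p = 0.00993), and its change in clone 1 was 0.46 (adjusted p = 0.0613). The groups did not overlap, and as for Cyp26a1 the lowest library was clone 2 replicate 2. Rara was at 9.02 ± 0.228 FPKM in WT (n = 4), at 7.76 and 7.73 FPKM in clone 1 and at 9.66 and 9.98 FPKM in clone 2. Its fall in clone 1 only just passed (-0.20, limma adjusted p = 0.0498). Without WT replicate 1, 2, 3 or 4 its adjusted p there was 0.121, 0.0607, 0.120 and 0.103. Rxra averaged 15.3 FPKM in WT, 12.5 in clone 1 and 17.9 in clone 2 and was higher in clone 2 than in clone 1 (0.49, limma adjusted p = 0.00415). Rxrb (30.6 to 32.6 FPKM on average in each group) and Rxrg (2.36 to 2.78 FPKM) passed in no comparison.

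**Figure D4:**
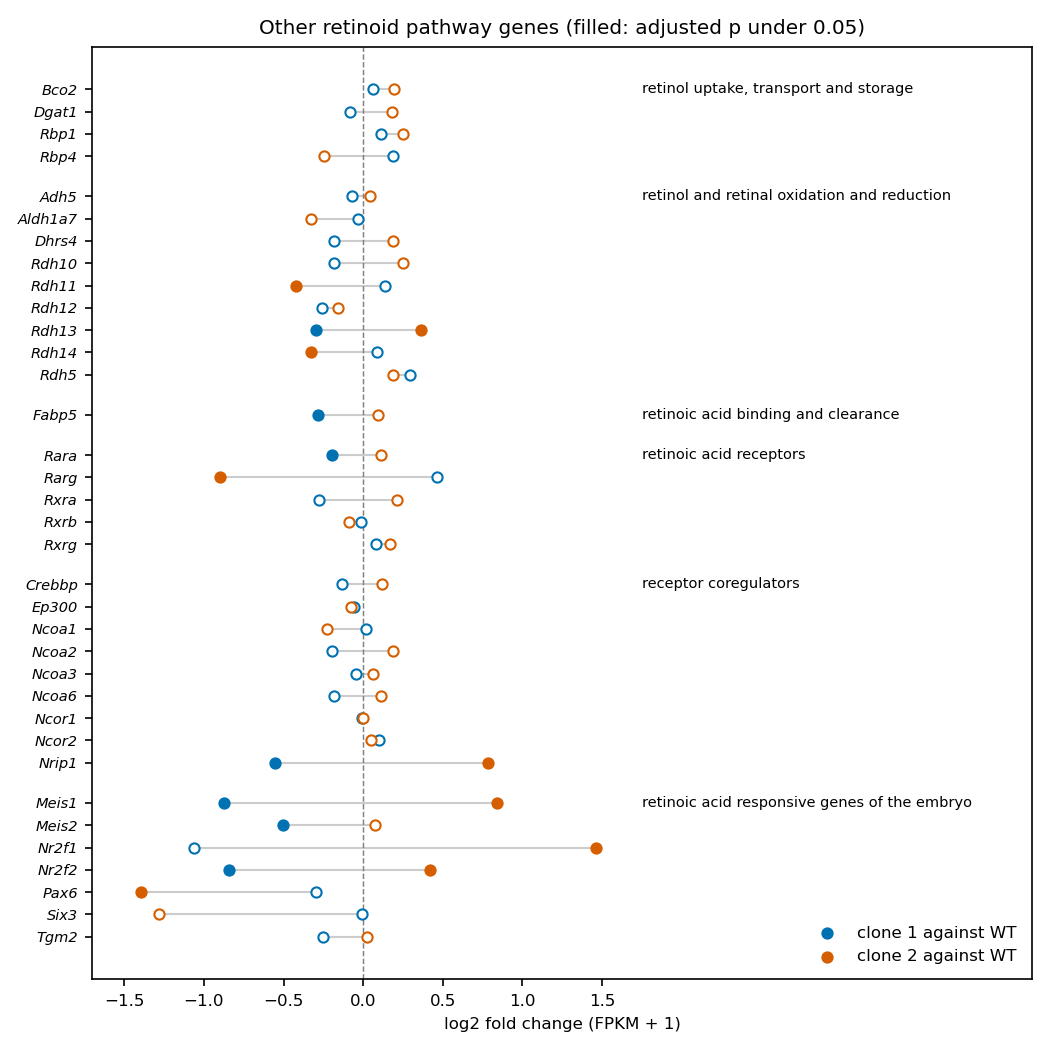
Log2 fold change on the FPKM + 1 scale (horizontal axis) of the 35 tested genes of the retinoid pathway lists, grouped by role, in clone 1 (blue) and clone 2 (orange) against the same WT libraries; filled points passed an adjusted p of 0.05. Nrip1, Meis1, Nr2f2 and Rdh13 have filled points on both sides of 0, lower in clone 1 and higher in clone 2.

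Among enzymes of retinol and retinal, 9 of 15 were tested. Rdh13, a mitochondrial retinal reductase, was at 13.8 ± 0.198 FPKM in WT (n = 4), at 11.2 and 10.9 FPKM in clone 1 and at 17.1 and 19.0 FPKM in clone 2, and it passed in both clones (log2 fold changes -0.29 and 0.36, limma adjusted p = 0.0146 and 0.00894). Rdh11, which also reduces retinal, fell in clone 2 to 21.7 and 18.1 FPKM from a WT mean of 26.9 FPKM (-0.42, limma adjusted p = 0.0298). Without WT replicate 1, 2, 3 or 4 the adjusted p of Rdh11 was 0.0387, 0.0459, 0.0572 and 0.0642. Rdh14, named after its values were seen, only just passed as lower in clone 2 (-0.33, limma adjusted p = 0.0476). Without WT replicate 1, 2, 3 or 4 its adjusted p was 0.0595, 0.0923, 0.0947 and 0.0868. Rdh10, the main retinol dehydrogenase of the embryo, averaged 3.11 FPKM in WT, 2.63 in clone 1 and 3.90 in clone 2. It was higher in clone 2 than in clone 1 (0.43, limma adjusted p = 0.0114), as was Dhrs4 (0.37, limma adjusted p = 0.00316). Of the 4 tested genes of retinol transport and storage, 0 passed in either clone against WT. Between the clones Dgat1, which can esterify retinol, was higher in clone 2 (0.27, limma adjusted p = 0.0497). Rbp4, the serum carrier of retinol, was lower in clone 2 (-0.43, limma adjusted p = 0.0233). The difference of Rbp4 was -0.37 without clone 1 replicate 2 and -0.28 without clone 2 replicate 2. That of Rdh10 was 0.35 and 0.33 in the same fits, each of which leaves a clone with 1 library. Dgat1 only just passed: without WT replicate 1, 2, 3 or 4 its adjusted p was 0.0702, 0.0532, 0.0562 and 0.0713.

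Nrip1, a corepressor that is itself induced by retinoic acid, was at 4.58, 3.67, 4.49 and 4.48 FPKM in WT, 2.89 and 2.34 FPKM in clone 1 and 7.21 and 9.15 FPKM in clone 2. It was lower in clone 1 (-0.56, limma adjusted p = 0.0181) and higher in clone 2 (0.79, limma adjusted p = 0.00756). Without WT replicate 1, 2, 3 or 4 its adjusted p in clone 1 was 0.0496, 0.0103, 0.0514 and 0.0522. The other 8 coregulators passed in neither clone against WT. Ncoa2, Ncoa6 and Crebbp were higher in clone 2 than in clone 1 by 0.38, 0.30 and 0.25 (limma adjusted p = 0.0263, 0.0131 and 0.0317). Without clone 1 replicate 2, a fit that leaves clone 1 with 1 library, they were higher by 0.22, 0.21 and 0.20. Without WT replicate 1, 2, 3 or 4 the adjusted p of Crebbp was 0.0422, 0.0334, 0.0526 and 0.0538.

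Of 17 genes known to respond to retinoic acid in the embryo, 7 were tested. The list does not sort genes by the direction of their response, so its median is no measure of retinoic acid. Pax6 and Six3 are in this list and also among the anterior neural progenitor markers. Meis1, Meis2 and Nr2f2 fell in clone 1, where the median of the 7 was -0.50 and that of all tested genes -0.048, and where 11.4% of all tested genes fell. In clone 2, Meis1, Nr2f1 and Nr2f2 rose and Pax6 fell, beside 7.06% and 6.96% of all tested genes, and the median was 0.077 against 0. The midbrain and hindbrain sum given above was likewise lowest in clone 1 and highest in clone 2, and the pluripotent and epiblast sum ran the other way. Their part in these values was not tested. Nr2f2, an orphan nuclear receptor gene, was at 12.1, 11.4, 12.3 and 11.4 FPKM in WT, 6.14 and 6.11 FPKM in clone 1 and 16.8 and 15.4 FPKM in clone 2, with no overlap between the groups (limma adjusted p = 0.00037 in clone 1 and 0.00757 in clone 2). Its relative Nr2f1 averaged 17.5 FPKM in WT, 7.67 in clone 1 and 49.0 in clone 2 (1.46 in clone 2, limma adjusted p = 0.0251, and adjusted p = 0.0523 in clone 1). Without WT replicate 1, 2, 3 or 4 its adjusted p in clone 2 was 0.0362, 0.00393, 0.0584 and 0.0579. Meis1, a TALE homeobox gene, averaged 2.71, 0.999 and 5.63 FPKM in WT, clone 1 and clone 2 (log2 fold changes -0.87 and 0.84, limma adjusted p = 0.0227 and 0.0276). In the same 4 fits the adjusted p of Meis1 was 0.0527, 0.00895, 0.0485 and 0.0545 in clone 1. In clone 2 it was 0.0315, 0.0402, 0.0650 and 0.0422. Pax6, an eye and forebrain regulator, fell in clone 2 to 17.8 and 11.1 FPKM from a WT mean of 38.6 FPKM (-1.39, limma adjusted p = 0.005). Meis2, Hoxb1, Hoxa3 and Hoxb5 were named after their values were seen. Hoxb1 reached at most 0.0160 FPKM, and Hoxa3 and Hoxb5 were listed at 0 in every library.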

How the data were processed

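The deposited table holds the authors' FPKM values for 8 libraries, as its headers say. It also gives the authors' mean FPKM and mean read count per genotype (a signal whose scaling is not stated), their null to WT fold and their p-value, with no test named. The submitters' processing notes name FastQC, SAMtools, TopHat2, Cufflinks, DESeq2, GRCm38 and mm10, without roles. Null columns are numbered within a clone and were assigned to clones; 0 columns were left unmapped, and 0 pairs of libraries were identical.

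Here limma 3.58.1 (R 4.3.3), with trend and robust moderation, was fitted on the log2(FPKM + 1) scale to 14521 genes averaging at least 1 FPKM, a scale that understates changes of low genes. Null against WT used 2 groups; clone contrasts used 3 groups sharing 1 spread. P-values were adjusted by Benjamini-Hochberg over all tested genes, with a threshold of 0.05. Members, lists and the naming rule were chosen with earlier results of these data known. By that rule all members, all receptors and up to 4 passing genes per pathway list were named, with the 3 genes most correlated with Crabp1 and Crabp2, the members with the smallest adjusted p in each clone. Coordinates are from GENCODE M21 (GRCm38), promoters from RefSeq (GRCm38.p6). Alternatives were pseudocounts of 0.1 and 0.5, no filter and a minimum of 5 FPKM, 2 scalings, plain moderation, other groupings, correlated lines and leaving out each library. A comparison of protein sequences was planned and not made.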

Additional observations from a re-analysis of the deposited data

Results flagged for a closer look

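The change against WT differed between the clones for 3 members by limma's direct test of clone 2 against clone 1: -2.18 for Cyp26a1, 0.49 for Crabp1 and 0.50 for Crabp2 on the log2 scale. Among the WT libraries of Cyp26b1, the value listed at 0 in replicate 2 lay apart from the other 3, with a gap of 0.883 of the group's whole range. Chance flags about 1 in 20 groups of this size in this way.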

How the results depend on the processing

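Of 321 recomputed fold changes of tested members, 305 kept their direction and their side of the threshold. Crabp1 and Crabp2 in clone 1, Crabp2 in clone 2 and both between the clones kept their calls in each of the 16 alternatives. Alternatives that leave a clone with 1 library take the gap between its libraries out of the spread. They cannot show whether a call of that clone holds. In clone 2 against WT, 2 members were called without trend and robust moderation, where Cyp26a1 passed (adjusted p = 0.0441). Over 16 alternatives the adjusted p of Cyp26a1 reached 0.143 in clone 2 against WT. It reached 0.221 between the clones, in a fit of the clones alone. Its lowest values came without clone 2 replicate 1, a fit that leaves clone 2 with 1 library. Directions turned in uncalled values near 0. Crabp2 in null, at -0.0019, was 0.027 after median ratio scaling, 0.010 without WT replicate 4, 0.079 without clone 1 replicate 1 and 0.083 without clone 1 replicate 2, with a range from -0.091 over left-out libraries. With a library left out, Aldh1a3 in clone 2 ran from -0.17 to 0.096 and Stra6 from -0.12 to 0.035, both highest without clone 2 replicate 2. Aldh1a3 between the clones ran from -0.037 (without clone 1 replicate 1) to 0.32. The cause was not tested.

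Counts over all genes moved more. In null 8 genes were called, against 106 when the clones' average was tested in the fit of 3 groups, 3 with correlated lines and 5 after median ratio scaling, and 3 to 12 with a library left out. The low counts were 3, 4 and 4 when WT replicate 1, 2 or 4 was dropped, 4 when the second library of clone 1 was dropped and 5 when the first of clone 2 was. With no filter 1506 were called in clone 1 (main 2266) and 1160 in clone 2 (main 2036). With a library left out the count ran from 443 to 3111 in clone 1, with 443 without clone 1 replicate 2 and 1074, 1038 and 992 without WT replicates 1, 3 and 4. In clone 2 it ran from 174 to 2406, with 174 without clone 2 replicate 2 and 1294, 1101 and 765 without WT replicates 2, 3 and 4. Between the clones 5794 were called, 3674 in a fit of the clones alone and 3098 to 5910 with a library left out, the fewest without clone 2 replicate 2. A lone clone library was assumed to vary like the other groups. No paired analysis was possible because replicate numbers in the null columns restart in each clone and match no single sample title. Few reads limit the members under 1 FPKM, at 5.29 to 61.2 mean reads in WT in the authors' deposited table. The tested Aldh1a3, at 37.5 mean reads there, has the same limit.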
